A study of Homo sapiens with 8 samples.

Results

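The primitive streak and segmentation genes followed here are 9 genes that mark the start of mesoderm formation and its division into somites: TBXT, MIXL1, EOMES, GSC, MESP1, MESP2, RIPPLY2, TBX6 and LFNG. They were chosen by name, with earlier results of these data known, among the 19775 genes that had a probe set naming no other gene. The 9 genes had 14 such probe sets, and the main value of a gene is that of its brightest probe set, by mean log2 signal on all 8 arrays. RNA of human embryonic stem cells, labelled as the established line H9 and grown in mTeSR medium, was measured on expression arrays of 54675 probe sets. The groups were embryoid bodies with 20 mM ethanol, embryoid bodies without ethanol, undifferentiated cells with 20 mM ethanol and undifferentiated cells without ethanol, with 2 arrays each. Ethanol was given for 24 h. Embryoid bodies are cell aggregates grown in suspension that begin to form the germ layers, and their age in culture is not given in the sources used here. The labels call the arrays duplicates without saying that they came from separate cultures, so p-values measure the spread between these arrays only.

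In the embryo, cells that leave the pluripotent epiblast pass through the primitive streak, where Nodal and WNT signals switch on T-box and homeobox factors. Streak cells become mesoderm or endoderm. Mesoderm beside the neural tube is then cut into somites by a clock of oscillating Notch, WNT and FGF target genes, with the T-box factor TBX6, MESP factors and Ripply repressors setting each boundary. Embryoid bodies pass through a comparable phase, in which streak genes are known to be expressed transiently.

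Array signals are given in linear units, which share a trimmed mean of about 500 on all 8 arrays. The median signal over all probe sets was 102 on both embryoid body arrays with ethanol, 85.1 on both without, 74.1 to 79.4 on undifferentiated arrays with ethanol and 69.2 to 70.8 on those without. This median is used as a mark of dimness, since the files hold no detection calls. Embryoid bodies carried markers of several lineages: all 8 tested endoderm and yolk sac markers were higher than in undifferentiated cells at 0 mM, as were 6 of 7 neuroectoderm and neuron markers and 5 of 7 later mesoderm markers, against 28% of all tested genes. KDR, of the later mesoderm list, was lower (-0.66), as were 24.7% of all tested genes. Some markers had mean signals under the array median in undifferentiated cells. Without ethanol these were 20.7 for FGB and 27.5 for FOXA1 (endoderm), and 49.5 for TWIST1, 48.4 for GATA4 and 61.7 for HAND1 (later mesoderm). HAND1 had a mean above the median, 83.2, in undifferentiated cells with ethanol. The filter kept FGB, FOXA1, TWIST1 and GATA4 through embryoid bodies, which favours a higher value there. Of 8 pluripotency markers 5 were lower, and all 8 stayed above the array median in every group. The 3′ over 5′ ratio, a sign of RNA quality, was 0.851 to 0.977 for GAPDH and, for ACTB, 1.35 to 1.58 on the 8 arrays. Transcripts that tell lines apart went against the labelled line on 4 arrays of 8, all from 1 stage. Every comparison of stages below therefore cannot be told apart from a comparison of lines, while each ethanol comparison stays within a stage.

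The promoter windows of the 3 genes whose signal differed between the stages, EOMES, LFNG and RIPPLY2, are shown to place those genes. They run from 250 bases before to 50 bases after an annotated start and come from RefSeq (GRCh38.p14), which gave 11 windows for 8 of the 9 genes. Capitals mark matches, on either strand, to the core of a T-box site (GGTGTGA), an E-box (CANNTG, bound by bHLH factors such as MESP1 and MESP2), an RBPJ site of the Notch pathway (GTGGGAA) or a TCF/LEF site of the WNT pathway (CTTTGAT).
EOMES, chr3:27722274-27722573, minus strand: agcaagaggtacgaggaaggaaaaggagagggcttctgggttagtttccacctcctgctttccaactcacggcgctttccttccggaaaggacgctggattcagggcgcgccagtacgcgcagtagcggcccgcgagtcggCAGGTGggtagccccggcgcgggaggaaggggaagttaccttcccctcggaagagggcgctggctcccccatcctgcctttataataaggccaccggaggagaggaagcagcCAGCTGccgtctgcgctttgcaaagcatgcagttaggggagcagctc
LFNG, chr7:2512279-2512578, plus strand: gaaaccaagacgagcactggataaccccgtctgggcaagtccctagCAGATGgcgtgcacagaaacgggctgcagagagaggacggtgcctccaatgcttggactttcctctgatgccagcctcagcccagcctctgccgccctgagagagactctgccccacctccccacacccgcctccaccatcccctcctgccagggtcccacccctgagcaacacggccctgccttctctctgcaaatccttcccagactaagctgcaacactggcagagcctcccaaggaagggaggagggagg
RIPPLY2, chr6:83853110-83853409, plus strand: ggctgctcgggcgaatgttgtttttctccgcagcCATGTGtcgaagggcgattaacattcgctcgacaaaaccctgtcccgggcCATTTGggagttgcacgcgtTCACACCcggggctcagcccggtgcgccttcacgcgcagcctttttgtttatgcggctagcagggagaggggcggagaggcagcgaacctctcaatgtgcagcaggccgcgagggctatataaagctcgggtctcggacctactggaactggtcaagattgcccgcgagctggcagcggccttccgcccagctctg

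The EOMES window held 2 E-box matches and the LFNG window 1, against E-box matches in 68.7% of all 35116 windows. The RIPPLY2 window held 2 E-box matches and 1 T-box core in reverse orientation, 146 bases before the start, and 3.4% of all windows hold such a core. A second, overlapping RIPPLY2 window around a later start held none of the 4 motifs, and a second LFNG window held 1 E-box. Among the other genes, MIXL1 had the only TCF/LEF match, a motif found in 2.6% of all windows. No RBPJ match was found in any of the 11 windows, against 6.2% of all windows, and no 2 matches overlapped. A match is a string of letters in a window and was not tested as a binding site.

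Between the stages, EOMES and LFNG were higher in embryoid bodies and RIPPLY2 was lower, at both ethanol doses. TBXT, MESP2 and TBX6 did not pass the test. GSC, MIXL1 and MESP1 were too dim to be tested. Testing required signals above the array median on 2 or more arrays, a filter that 6 of the 9 genes and 14072 of all genes passed, and limma's adjusted p under 0.05 (Benjamini-Hochberg over all genes tested) counted as a pass. With 3 of 6 tested genes passing at each dose, their share lay close to the background: 56.3% of all tested genes passed at 20 mM and 52.8% at 0 mM.

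**Figure D1:**
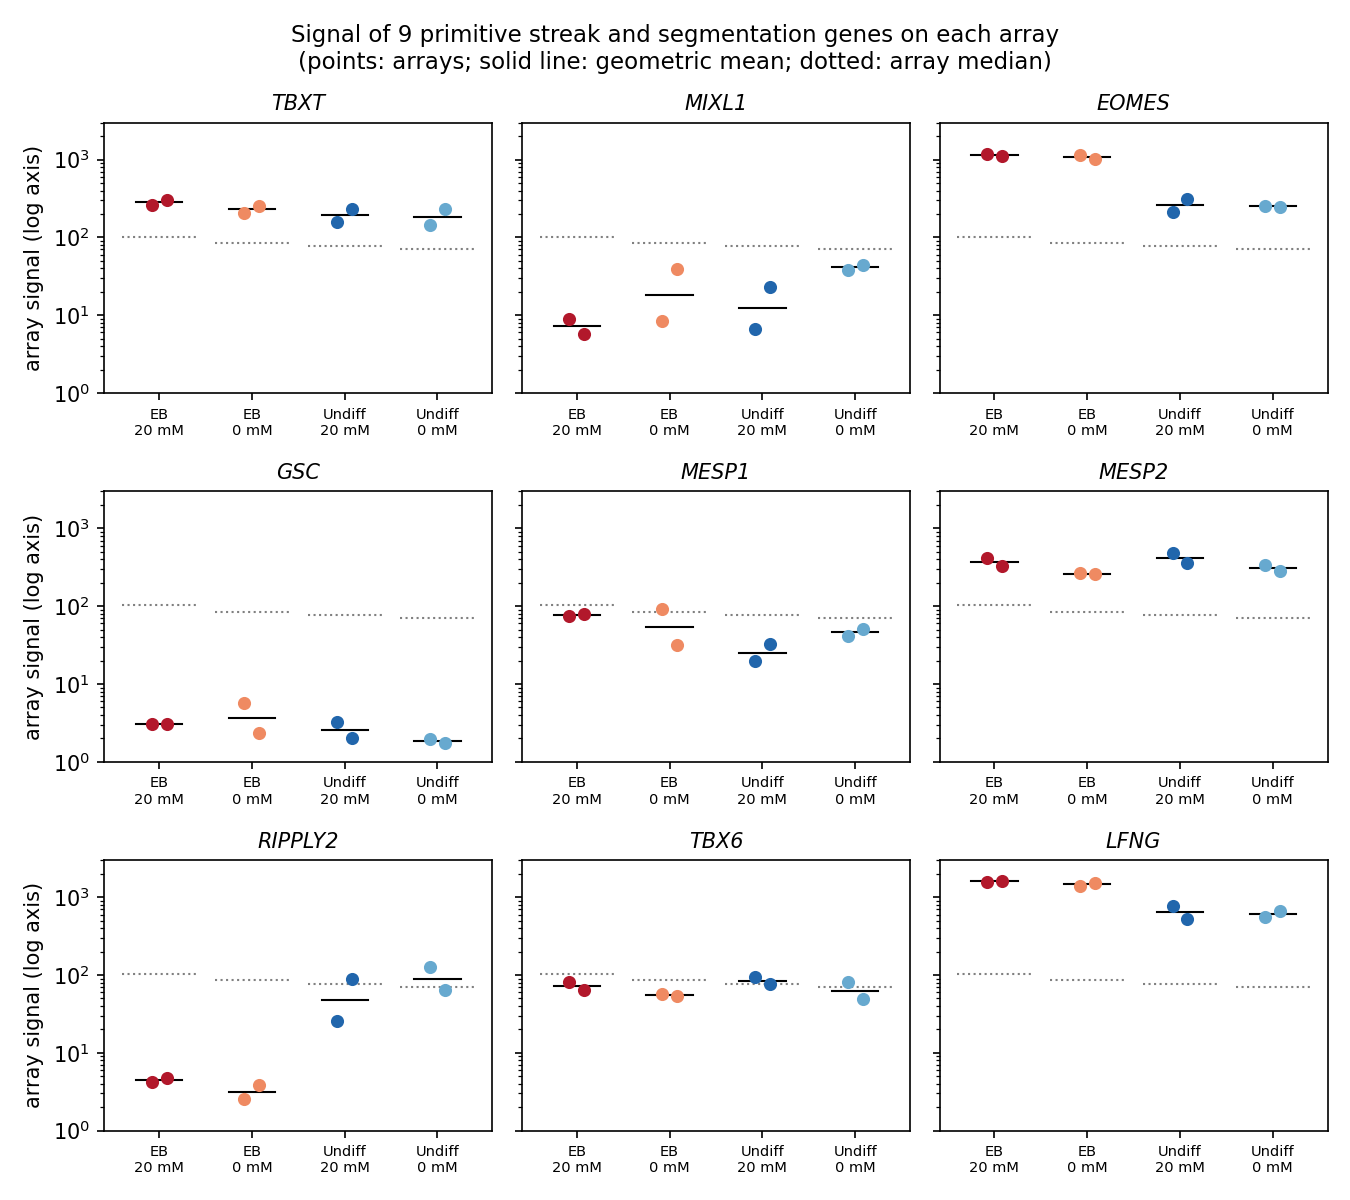
Array signal (vertical log axis, linear units) of the main probe set of each of the 9 genes in the 4 groups of 2 arrays; points are arrays, solid lines geometric means and dotted lines the array median. EOMES and LFNG lie highest in both embryoid body groups, RIPPLY2 lies at 2.51 to 4.79 there, and GSC lies between 1.74 and 5.62 on every array.

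EOMES, a T-box factor of the streak needed for definitive endoderm, had signals of 1175 and 1122 in embryoid bodies with ethanol and 1148 and 1023 without. In undifferentiated cells its signals were 214 and 316 with ethanol and 257 and 246 without. The stages did not overlap on any array, and all 8 arrays lay above their medians. EOMES was 4.42-fold higher in embryoid bodies at 20 mM (log2 change 2.14 ± 0.19, SE, n = 2 arrays per group, limma adjusted p = 0.000407). At 0 mM it was 4.32-fold higher (log2 change 2.11 ± 0.19, limma adjusted p = 0.000488). In a bulk sample, more cells of one type and more RNA per cell cannot be told apart.

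LFNG, a glycosyltransferase that modifies Notch receptors and cycles in the segmentation clock of the mouse, had signals of 1585 and 1622 in embryoid bodies with ethanol and 1413 and 1549 without. In undifferentiated cells the signals were 776 and 525 with ethanol and 562 and 661 without. The lowest embryoid body array was thus above the highest undifferentiated array. LFNG was 2.51-fold higher in embryoid bodies at 20 mM (log2 change 1.33 ± 0.19, limma adjusted p = 0.00228) and 2.43-fold higher at 0 mM (log2 change 1.28 ± 0.19, limma adjusted p = 0.00304). Its second, dimmer probe set differed by 0.90 at 20 mM and 1.01 at 0 mM on the log2 scale, in the same direction.

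RIPPLY2, a corepressor that ends the segmentation programme by blocking T-box factors in mouse and zebrafish, had signals of 4.17 and 4.79 in embryoid bodies with ethanol and 2.51 and 3.89 without. In undifferentiated cells they were 25.7 and 89.1 with ethanol and 126 and 64.6 without. Every embryoid body array lay far under the array median, and of the 4 undifferentiated arrays 2 lay above it, 1 at each dose. The log2 change was -3.42 ± 0.63 at 20 mM (limma adjusted p = 0.00558) and -4.85 ± 0.63 at 0 mM (limma adjusted p = 0.0018). The size of so large a change rests on signals of a few units. The filter kept RIPPLY2 through the undifferentiated arrays alone, which favours a lower value in embryoid bodies. Without the 20 mM undifferentiated replicate B, or without the 0 mM replicate A, it no longer passed the filter and 2 of 5 tested genes were called.

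TBXT (brachyury), the founding T-box factor and a marker of streak and notochord, had signals of 263 and 302 in embryoid bodies with ethanol and 209 and 251.2 without. In undifferentiated cells they were 158 and 234 with ethanol and 144 and 229 without. The replicates of undifferentiated cells differed by 1.48-fold with ethanol and 1.59-fold without, and at 0 mM the stages overlapped. The change between stages was 0.55 ± 0.28 at 20 mM (95% interval -0.14 to 1.24, limma adjusted p = 0.145). At 0 mM it was 0.33 ± 0.28 (95% interval -0.36 to 1.02, limma adjusted p = 0.358). TBXT was above the array median on all 8 arrays, at the 61.4th to 68th percentile of its own array.

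MESP2, a bHLH factor that positions somite boundaries, had signals of 417 and 331 in embryoid bodies with ethanol and 269 and 257 without. In undifferentiated cells they were 479 and 363 with ethanol and 339 and 282 without. The change between stages was -0.17 ± 0.18 at 20 mM (limma adjusted p = 0.473) and -0.23 ± 0.18 at 0 mM (limma adjusted p = 0.325). After each array was centred on its median, these values were -0.58 and -0.51 and passed (limma adjusted p = 0.0246 and 0.0413), while the median of all genes moved to -0.40 and -0.27. A second MESP2 probe set read only 4.47 to 14.1 and lay under the array median everywhere.

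TBX6, the T-box factor of presomitic mesoderm, had signals of 81.3 and 64.6 in embryoid bodies with ethanol and 56.2 and 53.7 without. In undifferentiated cells they were 93.3 and 75.9 with ethanol and 81.3 and 48.98 without. All 4 embryoid body arrays lay under their medians, and 3 of 4 undifferentiated arrays lay slightly above. The change between stages was -0.22 ± 0.26 at 20 mM (limma adjusted p = 0.513) and -0.20 ± 0.26 at 0 mM (limma adjusted p = 0.547). The second TBX6 probe set was under the array median on every array, at 10.5 to 39.8.

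**Figure D2:**
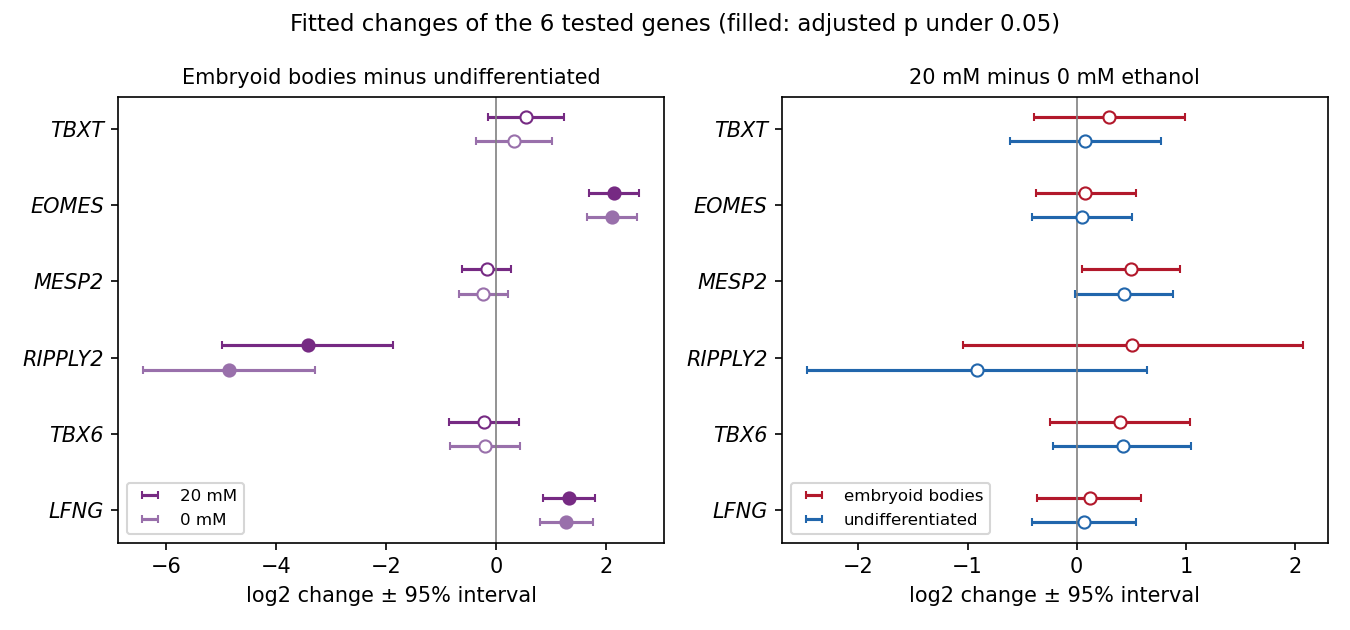
Fitted log2 changes (horizontal axis) with 95% intervals for the 6 tested genes, between the stages at each dose (left) and between 20 and 0 mM ethanol in each stage (right); filled points had adjusted p under 0.05. EOMES (2.14 and 2.11), LFNG (1.33 and 1.28) and RIPPLY2 (-3.42 and -4.85) are filled on the left, and no point is filled on the right.

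The remaining 3 genes gave no testable level. GSC, a homeobox factor of the streak organiser, read 3.09 and 3.09 in embryoid bodies with ethanol, 5.62 and 2.34 without, 3.24 and 1.995 in undifferentiated cells with ethanol and 1.95 and 1.74 without. It never rose above the 8.9th percentile of an array, and no fold is given. MIXL1, a homeobox factor of mesendoderm, read 8.91 and 5.75 in embryoid bodies with ethanol and 8.51 and 39.8 without. In undifferentiated cells MIXL1 read 6.61 and 22.9 with ethanol and 38 and 44.7 without, so all 4 groups were under the array median and replicates differed by up to 4.68-fold.

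MESP1, which marks the earliest cardiac mesoderm and whose gene lies near that of MESP2 on chromosome 15 with 2 annotated genes between them, had 3 probe sets that did not move together. The brightest read 75.9 and 79.4 in embryoid bodies with ethanol and 91.2 and 31.6 without. In undifferentiated cells it read 19.5 and 32.4 with ethanol and 41.7 and 51.3 without. Only 1 array of 8, an embryoid body array without ethanol, lay above its median. Between the stages at 20 mM the MESP1 probe sets differed by 1.63, -1.03 and 0.90 on the log2 scale, and with ethanol in undifferentiated cells by -0.88, 0.86 and -0.41. The direction for MESP1 thus depended on the probe set.

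**Figure D3:**
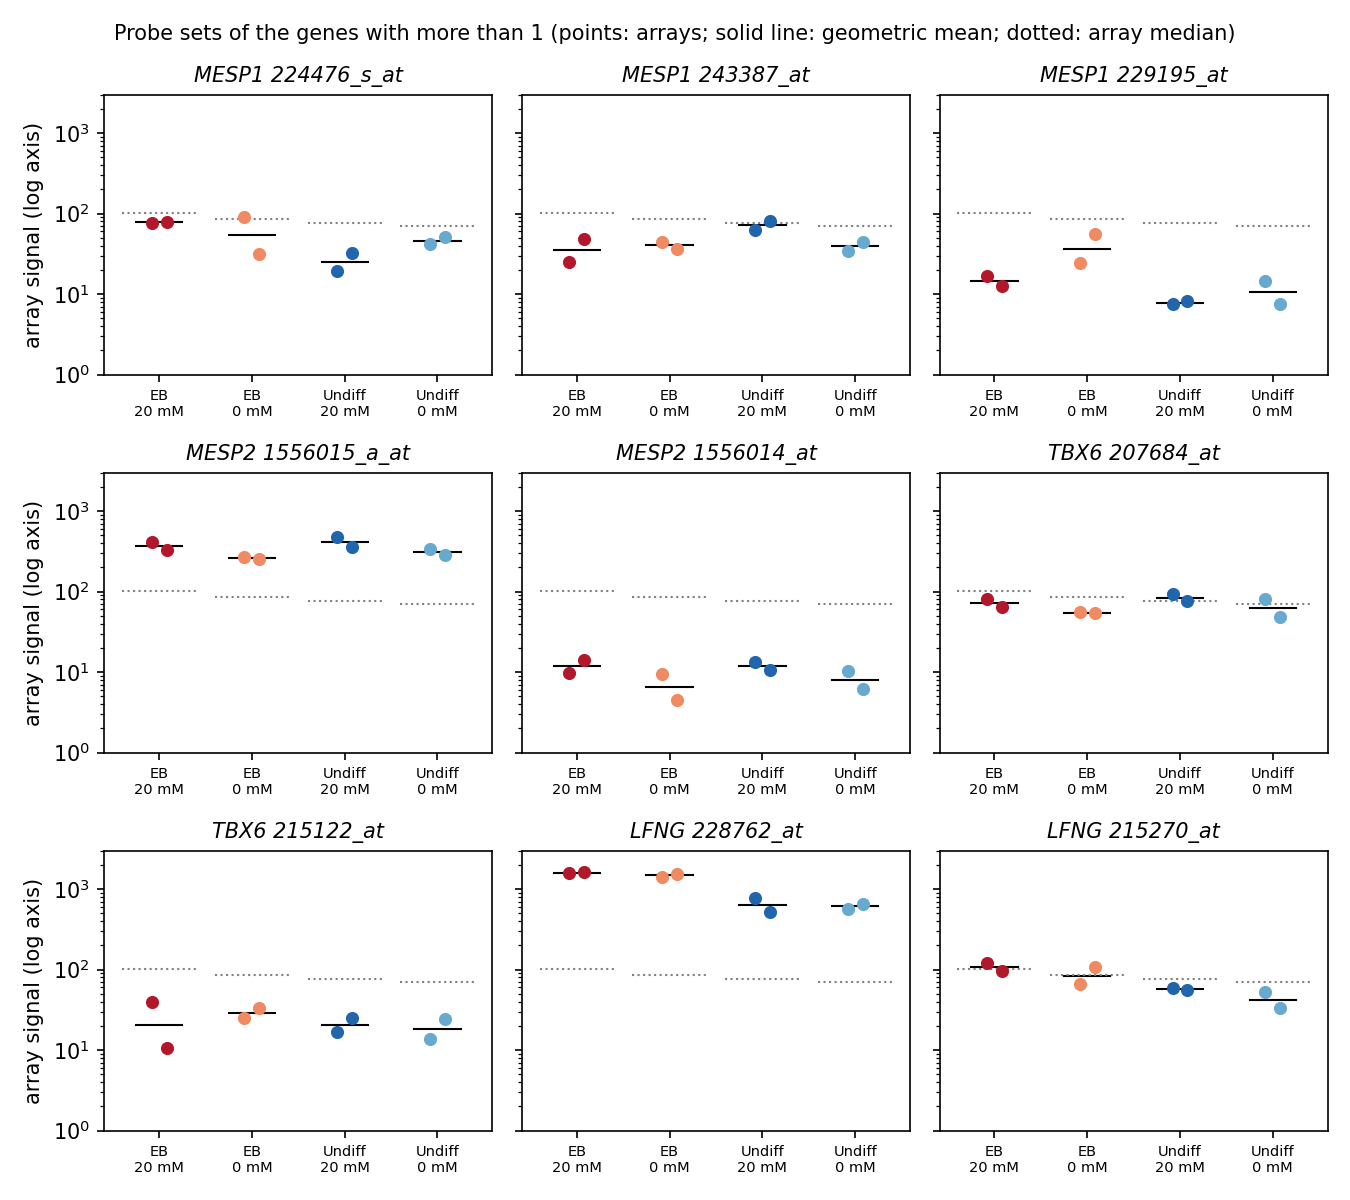
Array signal (vertical log axis, linear units) of all 9 probe sets of the 4 genes with more than 1, by group; points are arrays, solid lines geometric means and dotted lines the array median. The 3 MESP1 probe sets order the groups differently, and both LFNG probe sets have higher means in embryoid bodies.

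The question behind the ethanol groups was whether 20 mM for 24 h changes expression at either stage, and none of the 6 tested genes passed in either. In embryoid bodies 0.0711% of all genes passed, which is 10 genes (0.0426% higher and 0.0284% lower), and 3137 genes had an unadjusted p under 0.05, MESP2 alone among the 6. In undifferentiated cells 0.00711% passed, which is 1 gene, and 986 genes had an unadjusted p under 0.05, with none of the 6. The difference of the ethanol effects between stages passed for 0% of genes by limma, with 1828 at an unadjusted p under 0.05 and again none of the 6. With a trended and robust variance the 3 comparisons called 959, 0 and 31 genes, and still none of the 6.

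MESP2 was 1.41-fold higher with ethanol in embryoid bodies (log2 change 0.50 ± 0.18, 95% interval 0.05 to 0.95, limma adjusted p = 0.195). In undifferentiated cells it was 1.35-fold higher (log2 change 0.43 ± 0.18, 95% interval -0.02 to 0.88, limma adjusted p = 0.71). Both ethanol arrays lay above both controls at each stage, a pattern shared by 5.77% of tested genes. Among the 6, MESP2 alone had it, and after median centring its lower ethanol array tied with its higher control in undifferentiated cells. A tie was not counted as above, so that none of the 6 had the pattern after centring, against 1.17% of tested genes. With 1 array left out in turn, the MESP2 change ranged from 0.33 to 0.66 in embryoid bodies and from 0.23 to 0.63 in undifferentiated cells. The second MESP2 probe set moved by 0.85 and 0.56 in the same direction, at signals far under the array median.

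The other changes with ethanol in embryoid bodies were 0.51 ± 0.63 for RIPPLY2, 0.40 ± 0.26 for TBX6, 0.30 ± 0.28 for TBXT, 0.12 ± 0.19 for LFNG and 0.08 ± 0.19 for EOMES. All 6 values were positive, with a median of 0.35 against 0.02 over all genes tested. In 5 of the 6, all but EOMES, both ethanol arrays lay above both controls, against 29.4% of tested genes. The array median itself was higher on the ethanol arrays, at 102 against 85.1. Centring each array on its median moved the median change of all genes to -0.25. It left 1 of the 6, MESP2, with ethanol arrays above controls, against 8.72% of tested genes. For EOMES and LFNG both ethanol arrays then lay below both controls, a pattern that was not counted over all genes. Centring also made the values of EOMES (-0.18) and LFNG (-0.15) negative. Quantile normalisation made that of RIPPLY2 -0.03. Along with these genes, summed marker signal differed in embryoid bodies with and without ethanol: 27420 to 27960 against 16780 to 17390 for 7 later mesoderm markers, 39030 to 40220 against 29780 to 29790 for 8 endoderm markers, and 76840 to 79890 against 87270 to 89740 for 8 pluripotency markers. For 8 neuroectoderm and neuron markers the sums lay close together, at 19280 to 19410 against 18830 to 18840. Of the later mesoderm markers, COL3A1 had mean signals of 17200 with ethanol and 8910 without, and ACTC1 had 2820 in both. None of the tested markers passed for ethanol in embryoid bodies, and the part of these marker differences in the values above was not tested.

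In undifferentiated cells the changes were 0.42 ± 0.26 for TBX6, 0.08 ± 0.28 for TBXT, 0.07 ± 0.19 for LFNG, 0.05 ± 0.19 for EOMES and -0.91 ± 0.63 for RIPPLY2. Median centring turned those of TBXT (-0.05), LFNG (-0.07) and EOMES (-0.08) negative and moved the median of all genes to -0.12. Both ethanol arrays lay above both controls for 1 of the 6 genes, against 15.4% of all tested, and for none after centring, with MESP2 tied, against 5.71%. The 95% interval for EOMES was -0.41 to 0.51. RIPPLY2 had the widest interval, -2.47 to 0.64, and its 2 ethanol arrays differed from each other by 3.47-fold. Without ethanol replicate A its change was -0.02, and without control replicate B -1.40. For TBX6 the change was 0.05 without control replicate B and 0.78 without control replicate A.

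The difference between the ethanol effects of the stages (embryoid bodies minus undifferentiated) was 1.43 ± 0.89 for RIPPLY2 (95% interval -0.77 to 3.63, limma adjusted p = 0.537). For the other 5 genes it lay between -0.02 and 0.22, with standard errors of 0.26 to 0.40. As it crosses the stages, this difference cannot be told apart from a difference between lines.

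Other genes of the streak and early mesendoderm were listed to set the 9 beside. Of 27 listed, 21 were represented and 16 were tested. At 20 mM 13 rose in embryoid bodies and 2 fell, with a median log2 change of 2.91 against 0.02 over all genes, of which 29.2% rose and 27.1% fell. At 0 mM the counts were also 13 and 2, with a median of 3.18, against 28% and 24.7% of all tested genes. Among them were the T-box repressor TBX3 (log2 change 4.88 at 0 mM), the epithelial to mesenchymal transition factor SNAI2 (3.11), the streak ligand FGF8 (5.38) and the apelin receptor APLNR (5.17). FGF8 and APLNR lay far under the array median in undifferentiated cells, at mean signals of 3.43 and 9.33 with ethanol and 4.17 and 11 without. TBX3 (37.6 with ethanol and 60.3 without) and WNT8A (47.9 with and without), which also rose, had means under it there too. The filter thus kept FGF8, APLNR, TBX3 and WNT8A through embryoid bodies, which favours a higher value in embryoid bodies. NODAL, the ligand that induces the streak, rose 2.07-fold at 0 mM. Its feedback antagonist LEFTY1 (-1.48) and FOXH1 (-0.55), a nuclear factor of its pathway, fell. With ethanol none of the 16 passed in either stage, and 2 had an unadjusted p under 0.05 in each: SNAI2 (0.40) and WNT8A (0.42) in embryoid bodies, TBX3 (-0.68) and SNAI2 (-0.42) in undifferentiated cells. In embryoid bodies the WNT8A mean was above the array median with ethanol, at 108, and under it without, at 81.3. By mean signal the filter kept WNT8A through embryoid bodies with ethanol, which favours a higher value with ethanol.

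Of 36 other genes of the segmentation clock, presomitic mesoderm and somites, 34 were represented and 27 were tested. At 20 mM 18 rose in embryoid bodies and 4 fell, with a median of 1.16, against 29.2% and 27.1% of all tested genes. At 0 mM 19 rose and 3 fell, with a median of 1.13, against 28% and 24.7%. MEOX1 and ALDH1A2, among those that rose, had mean signals under the array median in undifferentiated cells. ALDH1A2 read 10.4 there with ethanol and 22.6 without. In embryoid bodies its mean was 126 with ethanol and 75.9 without, the latter also under the array median. The filter thus kept both through embryoid bodies, which favours a higher value there. For TCF15 the mean signals were under the median in embryoid bodies, at 42.2 with ethanol and 49.5 without, and in undifferentiated cells without ethanol, at 61. Only undifferentiated cells with ethanol, at 89.1, had a mean above it. The filter thus kept TCF15 through undifferentiated cells, which favours a lower value in embryoid bodies. The WNT antagonist DKK1 (5.83 at 0 mM), the WNT effector LEF1 (3.82), the Notch target HEY1 (2.26) and the receptor EPHA4 (2.92) had the smallest p-values at 0 mM. The Notch ligand DLL1 (2.16) and the Notch targets HES1 (1.20), HES4 (1.99) and HES5 (1.31) also rose. The FGF feedback genes SPRY4 (-1.28 at 20 mM) and DUSP6 (-0.51) and the Notch feedback gene NRARP (-0.55) fell at both doses, while SPRY2 (0.45 at 20 mM), another FGF feedback gene, rose at both, and TCF15 (-1.08), a somite factor, fell at 20 mM. HES7, the clock repressor, did not pass, with a mean signal of 36.7 at 0 mM in each stage, under the array medians. With ethanol none of the 27 passed. In embryoid bodies 1 had an unadjusted p under 0.05, NRARP at -0.22, and in undifferentiated cells 4 did, among them MEOX1 at 2.21, with mean signals of 42.2 with ethanol and 9.12 without, both under the array median.

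Of the 14 other T-box genes 5 were tested. Over all tested genes, 29.2% rose in embryoid bodies at 20 mM and 28% at 0 mM. Of the 5, TBX3 and TBX2 rose at both doses (TBX2 by 3.94 on the log2 scale at 0 mM). In undifferentiated cells both lay under the array median, at mean signals of 20 with ethanol and 13.3 without for TBX2 and 37.6 with ethanol and 60.3 without for TBX3, so the filter kept them through embryoid bodies and the size of their changes is imprecise. None passed for ethanol. In the fringe family, RFNG rose in embryoid bodies as LFNG did, by 0.73 at 20 mM and 1.05 at 0 mM. RFNG signals were 589 and 603 with ethanol and 631 and 575 without in embryoid bodies, and 347 and 372 with ethanol and 257 and 331 without in undifferentiated cells. MFNG read 138 and 145 in embryoid bodies with ethanol and 200 and 182 without. In undifferentiated cells MFNG read 170 and 110 with ethanol and 186 and 115 without, and it passed in no comparison.

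**Figure D4:**
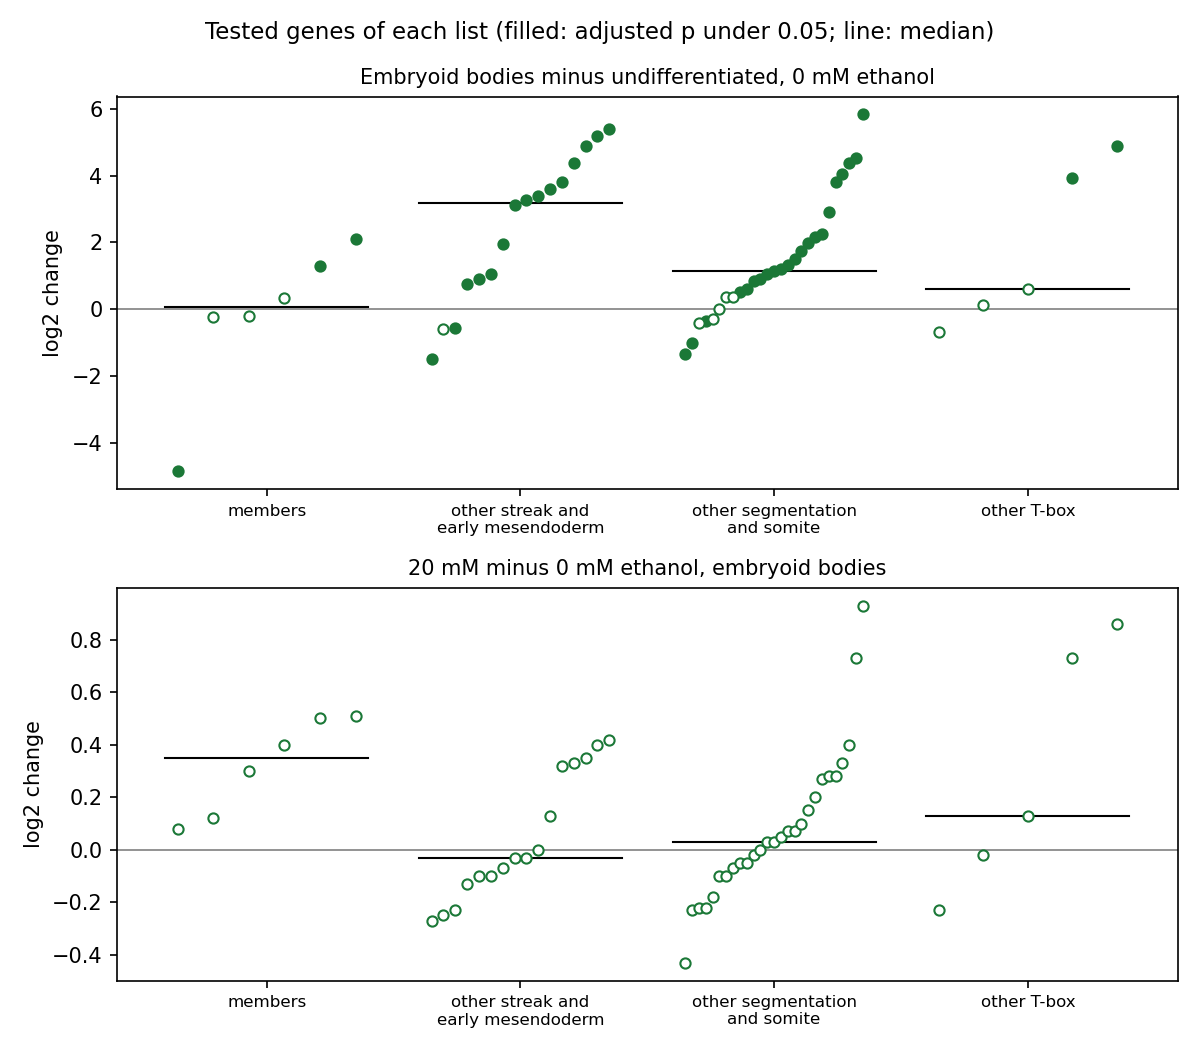
Log2 changes (vertical axis) of the tested genes of 4 lists, between the stages at 0 mM (top) and with ethanol in embryoid bodies (bottom); each point is a gene, filled where adjusted p was under 0.05, and lines are medians. At the top 3 of 6 members, 15 of 16 other streak genes and 22 of 27 other segmentation genes are filled, and at the bottom none is.

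Genes with the most similar profile over the 8 arrays were sought among 14071 others, as the smallest root mean square difference of centred log2 values. For EOMES these were ADGRL3 (0.092), SLC7A7 (0.094) and CDH2 (0.106), with Pearson r of 0.996 to 0.999. For LFNG they were CDK20 (0.060), COCH (0.076) and COL9A1 (0.081), for TBXT POP1 (0.132), TRPM7 (0.134) and EIF4G1 (0.134), and for RIPPLY2 NPTX1 (0.631), TCF24 (0.687) and GDA (0.729). The 8 arrays share 2 stages, which set most of each profile, so these are descriptions only. MESP2 and TBX6 spanned less than 1 log2 unit over the 8 arrays (0.90 and 0.93) and were not matched.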

How the data were processed

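Total RNA of 8 samples was hybridised to expression arrays. The deposited values are log10 signals, judged from their range (-1.46 to 4.61) and from a trimmed mean (2% off either end) of 500 to 500.1 per array. RMA is named without a version, per the submitters' processing notes, yet values of this kind look like scaled MAS 5 signals, and how they were made is not settled. They had been assumed to be log2, and were converted from log10 to log2 without further normalisation. A platform annotation named 1 gene for 41097 probe sets, several for 1801 and none for 11777; 41043 matched RefSeq by gene ID.

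One mean per group was fitted to all 8 arrays with limma 3.58.1 in R 4.3.3 (4 residual and 1.81 prior degrees of freedom) over 14072 genes, for 5 contrasts, and the fit was tested on simulated data. Errors are standard errors of the log2 change. The number of arrays limits the precision. The 9 genes and all lists were chosen with earlier results of these data known. All 9 are named, with up to 4 genes of smallest p per list and contrast, those called, and others named as background after their values were seen. Like-lettered replicates were not taken as pairs: their deviations correlated at -0.026 to 0.049. Alternatives changed the filter, probe set choice, scaling, variance model, replicate block and arrays used.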

Additional observations from a re-analysis of the deposited data

How the results depend on the processing

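The stage differences of EOMES and LFNG passed under all alternatives run, and that of RIPPLY2 under all in which it was tested; with the filter at the 75th percentile EOMES and LFNG alone were tested. None of the genes passed for ethanol, or for the difference of its effects between stages, under any alternative, with all 9 tested when no filter was set. Over all genes the calls for ethanol in embryoid bodies, 10 as reported, ranged from 0 to 3879 (3879 with median centring, 959 with a trended and robust variance, 477 with the stricter filter, 0 with the stage's arrays alone). In undifferentiated cells they ranged from 0 to 34, against 1 as reported, and for the difference from 0 to 31. Median centring turned the ethanol change in embryoid bodies to -0.18 for EOMES and -0.15 for LFNG, and that in undifferentiated cells to -0.05 for TBXT, -0.08 for EOMES and -0.07 for LFNG. It turned the difference of ethanol effects to -0.10 for EOMES, -0.07 for MESP2 and -0.08 for LFNG. Quantile normalisation turned RIPPLY2 in embryoid bodies to -0.03, and averaging probe sets turned the LFNG difference to -0.03. With 1 array left out in turn, the ethanol change in undifferentiated cells ranged from -0.25 to 0.42 for TBXT, -0.23 to 0.33 for EOMES and -0.22 to 0.35 for LFNG. The difference of effects ranged from -0.12 to 0.55 for TBXT, -0.25 to 0.32 for EOMES, -0.13 to 0.27 for MESP2, -0.38 to 0.35 for TBX6 and -0.23 to 0.33 for LFNG. The stage change ranged from -0.37 to 0.03 for MESP2 at 20 mM and from -0.56 to 0.17 for TBX6 at 0 mM. With the replicate letter as a replicate block, TBXT at 20 mM passed between stages (0.55, limma adjusted p = 0.028), and no other call among the 9 genes changed. The letters were not shown to pair the arrays. The cause of these changes was not tested. Genes near or under the array median, such as TBX6 and RIPPLY2, are limited by their signal.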
